A study of Mus musculus with 34 samples.

Results

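NaJa-F is a mouse colorectal cancer cell line that was grown from the peritoneal lavage of a single recipient of gene-edited colon organoids. The comparison described here is that of NaJa-F cells kept in encorafenib for 5 days with NaJa-F cells kept in the solvent DMSO for the same time, with 2 encorafenib libraries and 3 DMSO libraries of the 34 libraries of the series, chosen by line, treatment and day. All 14107 genes of the count table were tested. Both groups, like every other group of the series, carried BrafV600E/+, Trp53R172H and a deleted Apc on a C57BL/6N background, switched by the tamoxifen-inducible VillinCreERT2 transgene, which is driven by an intestinal epithelial promoter. Encorafenib was given at 0.5 µM and renewed together with the medium at day 2 and day 4, and the DMSO cells were handled alike. The line stands for the lavage of 1 recipient. Differences from the other lines of the series, NaJa-D and NaJa-G, are therefore differences between single recipients. The study states that all 3 lines came from the same organoid culture. Nothing in the descriptions says that the libraries of a group came from separate cultures. The p-values therefore measure a spread between libraries of the same group, shared over all 34 libraries of the series. This spread may be technical.

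BRAF V600E keeps the RAS-RAF-MEK-ERK cascade switched on without a growth factor. Active ERK drives the transcription of its own inhibitors (Sprouty and Spred proteins and dual specificity phosphatases) and of ETS and AP-1 factors, so that these mRNAs serve as readouts of the pathway. Encorafenib blocks the mutant monomeric kinase, and in colorectal cancer cells the loss of the negative feedback is known to let receptor kinases such as EGFR feed the pathway again. Loss of Apc stabilizes beta-catenin, which switches on WNT target genes, many of which are crypt stem cell genes or feedback inhibitors of the WNT pathway.

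The 3 DMSO libraries held 57259591 to 59379829 counts and the 2 encorafenib libraries 55393593 and 57583019. Epithelial markers were expressed at a high level. The study describes NaJa-F as intermediate between an epithelial-like NaJa-D and a mesenchymal-like NaJa-G, and mesenchymal genes such as Vim were expressed too (levels below). All 10 epithelial markers were in the table, with a summed level of 5801 to 5959 CPM (counts scaled to 1 common library total) in DMSO and 6930 and 7800 CPM in encorafenib. Of the 10 fibroblast markers 7 were in the table and summed to 6.15 to 6.91 CPM in DMSO and 8.73 and 9.77 CPM in encorafenib, and 2 of 8 endothelial markers summed to at most 1.46 CPM in any of the 5 libraries. Of the 10 immune cell markers 3 were in the table (32.8 to 33.9 CPM in DMSO, 36.0 and 36.5 CPM in encorafenib), and the defining markers Ptprc, Adgre1 and Cd3e were not. Of the 8 mesothelial markers 4 were in the table, and their sum of 660.1 to 711.6 CPM in DMSO and 1002 and 1031 CPM in encorafenib came almost entirely from Msln. The encorafenib libraries were less alike than the DMSO libraries, with a median SD of 0.11 log2 CPM against 0.0485. The fit shares 1 estimate of the spread of each gene over all groups, so that its p-values may be too small for this comparison. The variance between a pair of DMSO libraries was 3.32 to 4.46 times that of counting alone, and between the encorafenib libraries 46.5 times. They deviated from the DMSO mean in opposite directions with the GC content of the transcripts. In the fifth of genes with the lowest GC content the median deviation was 0.135 log2 CPM in encorafenib replicate 1 and -0.0369 in replicate 2, and in the fifth with the highest it was -0.129 and 0.105. Scrt2 had 154200 counts in encorafenib replicate 2 and 495 at most in 32 other libraries, with 221601 counts in replicate 1 of NaJa-F encorafenib day 1. This gene was included in the 46.5 above, and its share of that value was not computed. The part of the GC trend in the results below was not tested beyond a fit with this trend removed, given with the limits.

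Encorafenib changed 2567 of 14107 genes in NaJa-F at day 5, which is 18.2% of the genes tested (adjusted p below 0.01, limma). Of these, 1368 genes (9.70%) were higher and 1199 (8.50%) were lower than in DMSO. The changes were mostly small. The median absolute log2 fold change of the called genes was 0.51, and 282 genes rose and 297 fell by at least 1 on the log2 scale. The median log2 fold change over all genes was 0.003.

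**Figure D1:**
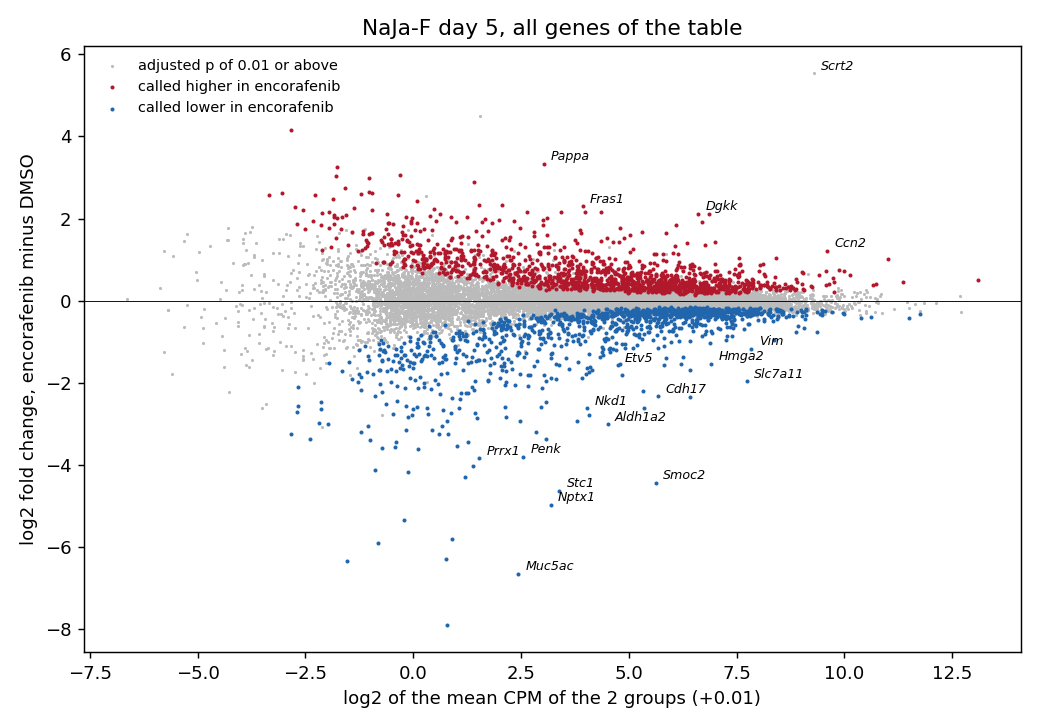
Every gene of the table by its mean level over both groups (log2 of the mean CPM, horizontal axis) and its log2 fold change of encorafenib against DMSO (vertical axis), with red points for the 1368 genes called higher and blue points for the 1199 called lower. The lowest values reach further from 0 than the highest, with Muc5ac at -6.65 and Smoc2 at -4.43 among genes of at least 5 CPM against Pappa at 3.33, and Scrt2 lies at the top without a call.

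The gene that fell most among those of at least 5 CPM was Muc5ac, a gel-forming mucin of gastric surface cells (ENSMUSG00000037974, chromosome 7, 141788972 to 141819231, GRCm38). Muc5ac had 10.7, 9.81 and 11.7 CPM in DMSO and 0.0849 and 0.114 CPM in encorafenib, a log2 fold change of -6.65 ± 0.47 (SE; limma, adjusted p = 6.39e-12). Smoc2, a matricellular protein expressed by crypt base cells (ENSMUSG00000023886, chromosome 17, 14279506 to 14404790), had 93.4, 96.7 and 94.5 CPM in DMSO and 4.42 and 4.33 CPM in encorafenib, and fell by 4.43 ± 0.10 on the log2 scale (adjusted p = 2.17e-22). In both genes the groups were far apart, and the 2 encorafenib libraries lay close to each other. The other genes at the lower end were Nptx1 (-4.98), Stc1 (-4.63), Prrx1 (-3.84), Penk (-3.80), Aqp8 (-3.36), Cadps (-3.20), Aldh1a2 (-3.01), Gm21698 (-2.92), Ihh (-2.92) and Adam19 (-2.84). Stc1 encodes the secreted hormone stanniocalcin, Penk the precursor of enkephalins, Aldh1a2 an enzyme that makes retinoic acid, Ihh a hedgehog ligand of the differentiated intestinal epithelium, and Prrx1 a mesenchymal homeobox factor.

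At the upper end stood Pappa, a secreted protease that cleaves IGF binding proteins. Pappa had 1.53, 1.62 and 1.28 CPM in DMSO and 15.2 and 14.4 CPM in encorafenib, an increase of 3.33 ± 0.16 on the log2 scale (limma, adjusted p = 1.38e-15). Nts, the precursor of the gut peptide neurotensin, had 41.8, 48.1 and 41.7 CPM in DMSO and 189 and 192 CPM in encorafenib (2.12 ± 0.11). Dgkk, a diacylglycerol kinase, had 37.7, 35.0 and 37.4 CPM in DMSO and 171 and 148 CPM in encorafenib (2.12 ± 0.09). All 3 genes had every encorafenib library above every DMSO library. The choice of these genes, and of Muc5ac and Smoc2 above, required groups without overlap. Of all genes tested, 55.3% had no overlap between the groups. The remaining genes were Mgat4c (2.32), the basement membrane protein Fras1 (2.30), Plekhs1 (2.15), the semaphorin Sema3d (2.15), Klhdc7a (2.15), the pseudogene Mgam2-ps (2.15), the copper carrier Cp (2.02), the WNT ligand Wnt10a (1.98) and the tight junction protein Cldn1 (1.97). As a pseudogene may share reads with its parent, the value of Mgam2-ps is uncertain.

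**Figure D2:**
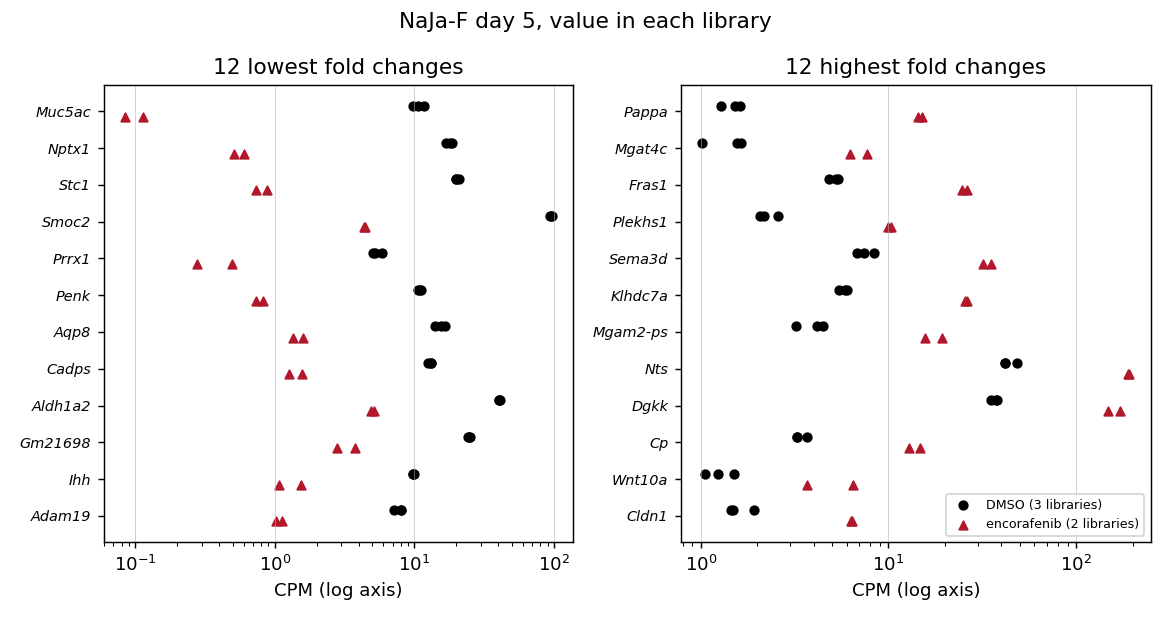
CPM on a log axis in each library for the 12 genes with the lowest (left) and the 12 with the highest fold changes (right), with black circles for the 3 DMSO libraries and red triangles for the 2 encorafenib libraries. The groups do not overlap in any of these genes, which the choice of the genes required, and the encorafenib libraries of Wnt10a lie furthest apart on the right.

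The readouts of ERK were split at day 5. Of the 10 feedback inhibitors, 4 were lower and 2 were higher, with a median log2 fold change of -0.27, beside 0.003 over all genes. The counts in this and the later lists stand beside 9.70% of all genes called higher and 8.50% called lower at day 5. Spry4 had 9.56, 10.2 and 10.2 CPM in DMSO and 4.79 and 5.83 CPM in encorafenib (-0.91 ± 0.15), and Spred2 had 138, 142 and 133 CPM against 78.6 and 87.2 CPM (-0.74 ± 0.07). Spry2 (-0.45) and Spred1 (-0.29) also fell. In contrast, Spry1 rose from 49.2 to 50.5 CPM in DMSO to 74.6 and 79.6 CPM (0.63 ± 0.07), and the ERK phosphatase Dusp4 rose by 0.34 ± 0.10. Dusp6, the phosphatase that most directly follows ERK activity, had 140 to 151 CPM in DMSO and 122 and 124 CPM in encorafenib and was not called (-0.24 ± 0.08; limma, adjusted p = 0.0295). Dusp4 had 204 CPM in encorafenib replicate 2, 173 CPM in replicate 1 and 145 to 151 CPM in DMSO. The members called higher were 1 without encorafenib replicate 2 and without each DMSO library in turn.

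Of 17 ERK dependent transcription factors, 6 were lower and 4 were higher. The median of 0.05 was 0.17 without encorafenib replicate 1 and -0.10 without replicate 2, so that its sign rests on the library. The ETS factors of the PEA3 group and Hmga2 fell most. Etv5 (ENSMUSG00000013089, chromosome 16, 22381309 to 22439719) had 40.1, 41.7 and 38.3 CPM in DMSO and 13.6 and 13.3 CPM in encorafenib (-1.57 ± 0.09; limma, adjusted p = 1.06e-13). Hmga2, a chromatin protein of embryonic and cancer cells (ENSMUSG00000056758, chromosome 10, 120361275 to 120476469), had 179, 177 and 180 CPM against 59.6 and 63.9 CPM (-1.53 ± 0.06). Etv1, at under 1 CPM in DMSO, fell by 2.32 ± 0.48 on the log2 scale, and Etv4 by 0.66 ± 0.07. The AP-1 members Fosl1 (-0.65) and Fosb (-0.64) were lower. On the other side stood the stress-inducible Atf3 (0.76), the immediate early gene Egr1 (0.56), Klf6 (0.35) and Fosl2 (0.25). Egr1 had 12.6, 11.8 and 10.9 CPM in DMSO and 17.6 and 17.0 CPM in encorafenib. Junb shows how far the 2 encorafenib libraries can differ: with 77.4 to 88.7 CPM in DMSO it had 88.4 CPM in replicate 1 and 198 CPM in replicate 2, and it was not called (0.70 ± 0.25, adjusted p = 0.0386).

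Promoters are shown for Etv1, Etv5, Hmga2 and Spred2, which had the lowest fold changes of the called genes in both lists apart from Spry4, whose sequence is not shown here. The 250 bases before their start sites are shown here to let the promoters of genes that fell together be read side by side (RefSeq, GRCm38.p6, 5′ to 3′ in the direction of transcription). They lie at chr12:38779832-38780081 on the plus strand, chr16:22439571-22439820 on the minus strand, chr10:120476470-120476719 on the minus strand and chr11:19924192-19924441 on the plus strand. They hold no AP-1 motif (TGACTCA or TGAGTCA), ETS motif (CCGGAAG), TCF/LEF motif (ATCAAAG), interferon response element (ISRE, written GAAA, any 2 bases, GAAA) or GAS motif (TTCNNNGAA) on either strand, and so no base is in capitals.
Etv1 promoter: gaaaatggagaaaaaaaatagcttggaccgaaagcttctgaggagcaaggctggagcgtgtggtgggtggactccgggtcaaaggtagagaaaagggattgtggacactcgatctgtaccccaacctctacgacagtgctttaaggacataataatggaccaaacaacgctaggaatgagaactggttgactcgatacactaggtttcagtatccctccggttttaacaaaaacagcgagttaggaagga
Etv5 promoter: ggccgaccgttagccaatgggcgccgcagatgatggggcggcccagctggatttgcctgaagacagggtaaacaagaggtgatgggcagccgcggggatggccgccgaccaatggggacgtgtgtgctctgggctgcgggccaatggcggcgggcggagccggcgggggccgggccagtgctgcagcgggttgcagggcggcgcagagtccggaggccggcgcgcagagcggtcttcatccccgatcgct
Hmga2 promoter: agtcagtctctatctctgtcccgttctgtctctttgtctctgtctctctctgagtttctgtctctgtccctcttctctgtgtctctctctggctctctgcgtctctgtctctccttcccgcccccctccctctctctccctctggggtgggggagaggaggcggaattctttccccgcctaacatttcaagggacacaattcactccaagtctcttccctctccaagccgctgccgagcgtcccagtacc
Spred2 promoter: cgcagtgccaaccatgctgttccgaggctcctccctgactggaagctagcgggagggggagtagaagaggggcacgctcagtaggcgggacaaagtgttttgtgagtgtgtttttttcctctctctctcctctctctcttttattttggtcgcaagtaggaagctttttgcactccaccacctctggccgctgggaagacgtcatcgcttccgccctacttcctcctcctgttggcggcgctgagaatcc
A RefSeq promoter was found for 10225 of the genes tested. The AP-1 motif was present in 3.31% of all these promoters, in 6.11% of the 916 promoters of genes called lower and in 5.56% of the 1044 promoters of genes called higher. The ETS motif was present in 1436 of the 10225 promoters, a larger share than in the called sets, with 9.50% of those called lower and 6.99% of those called higher. The TCF/LEF motif was present in 2.31%, 2.62% and 1.72%, and the ISRE in 2.45%, 3.06% and 3.74%. The GAS motif was present in 5.59%, 5.46% and 4.79%. These shares describe letters in a short window and have no test.

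The core of the cascade moved little, and its share of calls was close to the 18.2% of all genes. Of 18 genes 1 was higher (Sos2, 0.23; none was called higher without encorafenib replicate 1 or without any single DMSO library) and 3 were lower, among them the scaffold Ksr1, which fell by 0.72 ± 0.11 on the log2 scale. In the EGFR family, 2 receptors rose and 3 ligands fell. Egfr itself had 116, 115 and 118 CPM in DMSO and 179 and 158 CPM in encorafenib (0.53 ± 0.07; limma, adjusted p = 5.51e-07), and Erbb3 had 99.5, 106 and 103 CPM against 148 and 136 CPM (0.47 ± 0.07). The ligands Btc (-0.61 ± 0.07), Areg (-0.52 ± 0.11) and Tgfa (-0.47 ± 0.06) fell, as did the EGFR inhibitor Lrig1 (-0.22). The other 7 of the 13 measured members were not called, among them Erbb2 (0.12) and the ligands Hbegf (0.13) and Ereg (0.06), and without encorafenib replicate 1 the lower members were 2. Of 18 other receptor kinase genes, Fgfr1 fell from 7.10 to 8.07 CPM in DMSO to 3.53 and 3.60 CPM (-1.10 ± 0.10), and Axl (-0.63) and Pdgfra (-0.53) fell too. Fgfr3 rose by 0.84 ± 0.15, and the AXL ligand Gas6 by 0.28.

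Genes of proliferation were called lower in part, by small amounts. Of 18 DNA replication genes 8 fell and none rose (median -0.24), with values from -0.37 for the helicase subunit Mcm5 to 0.01 for Rrm1. Mcm5 had 191 to 192 CPM in DMSO and 146 and 151 CPM in encorafenib. Of 18 mitosis genes 5 fell and none rose (median -0.10), with Kif20a lowest at -0.32 ± 0.06 and Ube2c highest at 0.08. Mki67, the proliferation antigen, had 753 to 812 CPM in DMSO and 813 and 670 CPM in encorafenib, so that its groups overlapped. The replication genes called lower were 5 without encorafenib replicate 1 and without each DMSO library in turn, and the mitosis genes called lower were 2 without encorafenib replicate 2 or DMSO replicate 1 and 3 without either of the other DMSO libraries. With only the 2 groups compared in the model, 1 mitosis gene was called lower. The replication genes called lower were also 5 with RLE scaling and with the replicate block. Of 16 genes of G1 control, the cyclin Ccnd2 (-0.43), Btg1 (-0.34) and Cdk4 (-0.27) fell, whereas Cdk6 (0.34) and the antiproliferative Btg2 (0.89) rose. Ccnd1, the D cyclin that ERK induces, had 587 to 594 CPM in DMSO and 488 and 526 CPM in encorafenib and was not called (-0.22 ± 0.09; limma, adjusted p = 0.0675). Of 19 genes of MYC and ribosome biogenesis 9 fell and 1 rose (median -0.27). RNA polymerase I subunit Polr1a (-0.42 ± 0.06) was lowest and the MYC antagonist Mxd4 (0.45 ± 0.06) was highest.

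**Figure D3:**
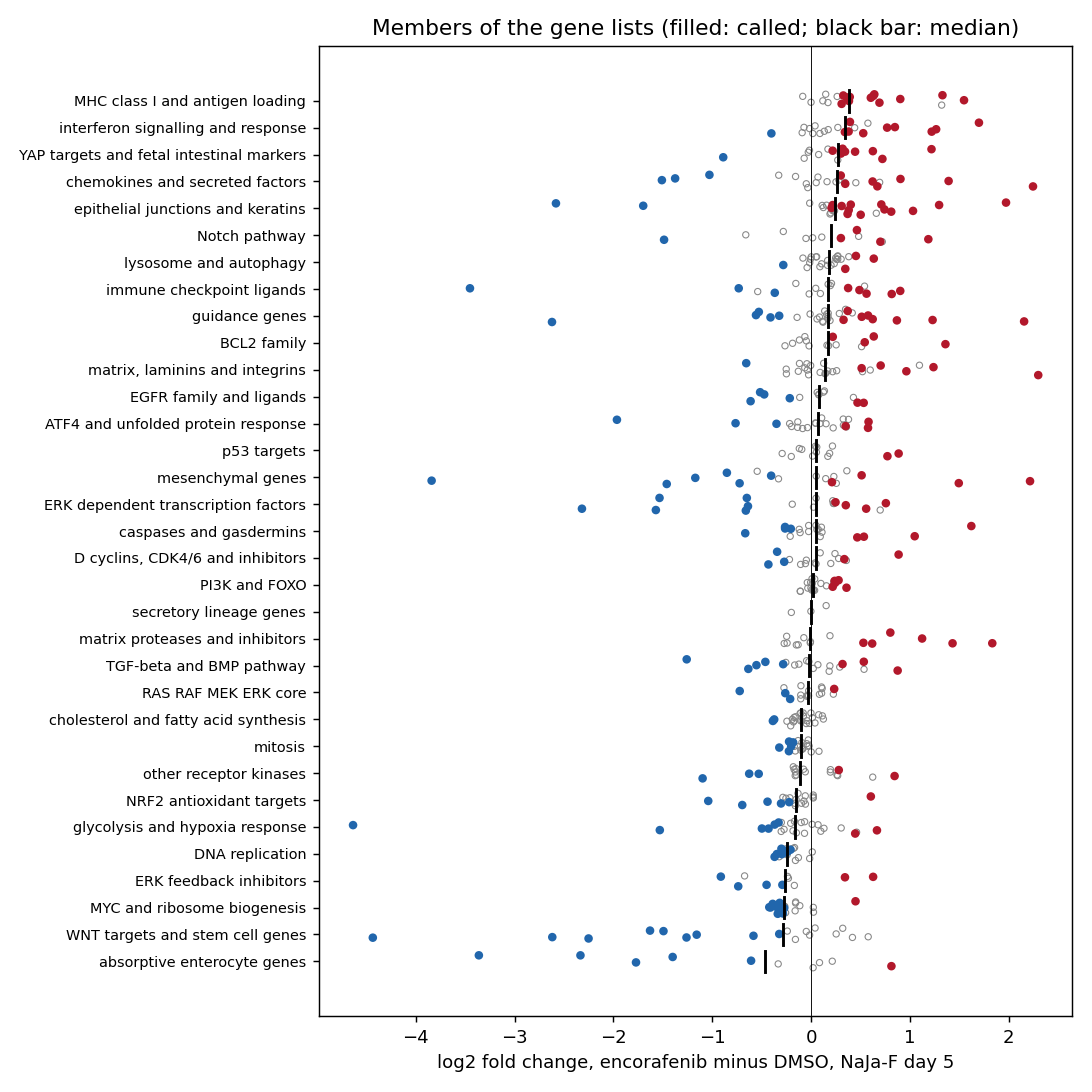
Log2 fold change of encorafenib against DMSO in NaJa-F at day 5 (horizontal axis) for each measured member of 33 gene lists (rows, ordered by their median). Filled points are called genes (red higher, blue lower), open points are not called, and the black bar is the median of the list. Enterocyte genes (-0.47) and WNT targets (-0.28) have the lowest medians, and class I antigen genes (0.38) the highest.

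WNT targets and stem cell genes were called lower in part, and no member was called higher. Of 18 measured members 9 were lower and none was higher (median -0.28). Beside Smoc2, they included feedback inhibitors of the pathway and nuclear factors. Nkd1, an inhibitor of Dishevelled (ENSMUSG00000031661, chromosome 8, 88521354 to 88594884), had 28.1, 29.5 and 27 CPM in DMSO and 4.26 and 4.90 CPM in encorafenib (-2.62 ± 0.16; limma, adjusted p = 1.85e-13). Notum, the enzyme that inactivates WNT ligands, had 25.2, 26.3 and 23.2 CPM against 7.83 and 8.21 CPM (-1.63 ± 0.17). The factor Lef1 had 3.23 to 3.92 CPM in DMSO and 0.679 and 0.795 CPM in encorafenib (-2.25 ± 0.25). In all 3 genes the encorafenib libraries lay close together and well below every DMSO library. Prox1 (-1.49), the BMP pseudoreceptor Bambi (-1.26), Apcdd1 (-1.16), Tcf7 (-0.58) and Axin2 (-0.32) fell as well. Axin2, the most general of the beta-catenin targets, had 223 to 247 CPM in DMSO and 175 and 204 CPM in encorafenib. The stem cell receptor Lgr5 had 4.81 to 5.55 CPM in DMSO and 4.35 and 4.42 CPM in encorafenib and was not called (-0.24 ± 0.10, adjusted p = 0.0861). The list ended at Sp5 (0.58 ± 0.27, not called), with 3.11 CPM in replicate 1 and 8.96 CPM in replicate 2. Sox9 (0.42), Ephb2 (0.32), Lgr4 (0.25) and Cd44 (0.04) also lay above 0 without a call. Znrf3 (-0.16), Ephb3 (-0.05) and Rnf43 (-0.02) lay below 0 without a call. Without encorafenib replicate 1 there were 8 members called lower and 2 called higher, and without replicate 2 there were 9 and 1.

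Of 21 genes of the absorptive lineage 10 were in the table, of which 5 were lower, 1 was higher and 4 were not called (median -0.47). The intestinal cadherin Cdh17 had 83.8, 85.2 and 86.7 CPM in DMSO and 16.8 and 17.0 CPM in encorafenib (-2.33 ± 0.09; limma, adjusted p = 3.91e-17). The water channel Aqp8 (-3.36), the nuclear receptor Hnf4a (-1.77), Krt20 (-1.40) and Vil1 (-0.61) fell, and the carbonic anhydrase Car2 rose (0.81 ± 0.08). Of 16 secretory lineage genes 3 were in the table, and limma called none of them at an adjusted p below 0.01.

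Of 25 epithelial junction and keratin genes 13 rose and 2 fell (median 0.24). The tight junction proteins Cldn1 and Tjp3 and the desmosomal cadherin Dsg2 rose most. Cldn1 had 1.93, 1.44 and 1.49 CPM in DMSO and 6.29 and 6.36 CPM in encorafenib (1.97 ± 0.17), Tjp3 had 4.58 to 4.87 CPM against 9.99 and 13.2 CPM (1.29 ± 0.15), and Dsg2 had 121 to 125 CPM against 265 and 240 CPM (1.03 ± 0.08). Epcam rose by 0.40 ± 0.08. The members that fell were the pore-forming Cldn2, from 7.37 to 7.54 CPM in DMSO to 1.32 and 1.15 CPM (-2.58 ± 0.15), and Krt23 (-1.70 ± 0.15). Without encorafenib replicate 2, 7 members were called higher in place of 13.

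Of 17 mesenchymal genes 6 fell and 4 rose (median 0.05). Those that fell included the factors Prrx1, Zeb1, Zeb2 and Twist1 and the intermediate filament Vim. Prrx1 had 5.04, 5.23 and 5.89 CPM in DMSO and 0.493 and 0.276 CPM in encorafenib (-3.84 ± 0.26; limma, adjusted p = 3.68e-12). Vim had 323, 327 and 304 CPM against 135 and 148 CPM (-1.17 ± 0.10), and Zeb1 had 19.1 to 20.1 CPM against 12 and 9.76 CPM (-0.85 ± 0.09). Zeb2 (-0.72), Twist1 (-0.40) and S100a4 (-1.46) made up the rest. The median was -0.43 without encorafenib replicate 2, and the members called higher were 2 without encorafenib replicate 1 or DMSO replicate 1. The members that rose encode contractile proteins and fibronectin, namely Cnn1 (2.21), Acta2 (1.49), Fn1 (0.51) and Tpm1 (0.21). Cnn1 and Acta2 were at most 0.289 and 1.04 CPM in any of these libraries. The part of a small number of other cells in these low values was not tested, and the fibroblast markers Dcn (2.20 ± 0.44, at most 1.05 CPM) and Col1a1 (1.24 ± 0.25, at most 3.94 CPM) rose beside them, while Pdgfra fell. Of the 4 measured mesothelial markers 3 rose too, namely Upk3b (1.62 ± 0.30, at most 0.866 CPM), Lrrn4 (1.21 ± 0.21, at most 3.65 CPM) and Msln (0.55 ± 0.13), as did 1 of the 3 immune markers, Csf1r (1.93 ± 0.15, at most 3.21 CPM). In bulk libraries, fewer cells of a type and less RNA per cell cannot be told apart.

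Of 15 YAP targets and fetal intestinal markers 8 rose and 1 fell (median 0.27). Ccn2, the most responsive of the YAP targets, had 474, 458 and 474 CPM in DMSO and 1135 and 1048 CPM in encorafenib (1.22 ± 0.09; limma, adjusted p = 1.40e-11). Anxa1 (0.62), Ankrd1 (0.44) and Amotl2 (0.34) also rose, and the interleukin 1 antagonist Il1rn fell (-0.89 ± 0.05). Without encorafenib replicate 2, 4 members were called higher.

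Of 19 TGF-beta and BMP genes 3 rose, led by Tgfb2 (0.88), and 5 fell, led by the ligand Bmp7, which had 28.0 to 30.3 CPM in DMSO and 11.7 and 12.8 CPM in encorafenib (-1.26 ± 0.11). Of 12 Notch genes 4 rose, among them Dtx4 (1.19) and the ligand Dll1 (0.70), whereas the ligand Dll4 fell (-1.49 ± 0.31). The Notch genes called higher were 1 without encorafenib replicate 2 and 2 without DMSO replicate 3, and the TGF-beta and BMP genes called lower were 3 without encorafenib replicate 1. Among 29 guidance genes 8 rose and 5 fell. Sema3d had 6.78, 7.38 and 8.41 CPM in DMSO and 35.1 and 31.8 CPM in encorafenib (2.15 ± 0.11), and Ntn1 rose by 1.23 ± 0.16. Sema5a had 68.6 to 70.9 CPM against 11.8 and 10.9 CPM (-2.62 ± 0.13). Of 25 matrix, laminin and integrin genes 5 rose, from Fn1 (0.51) to Fras1 (2.30), and the laminin receptor subunit Itga6 fell (-0.66 ± 0.08). Of 15 matrix proteases and inhibitors 6 rose and none fell, led by Mmp15 with 29.2 to 31.1 CPM in DMSO and 94.1 and 121 CPM in encorafenib (1.83 ± 0.12).

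Transcripts of class I antigen presentation were called higher in part. Of 19 measured genes 12 were higher and none was lower (median 0.38), from Psme2 (0.31) to H2-Q4 (1.55) among those called. B2m, the light chain of all class I molecules, had 92.3, 92.4 and 92.1 CPM in DMSO and 144 and 141 CPM in encorafenib (0.63 ± 0.08; limma, adjusted p = 3.11e-07). H2-K1 had 224 to 226 CPM in DMSO and 319 and 367 CPM in encorafenib (0.60 ± 0.09), and the peptide editor Tapbp had 87.6 to 90.7 CPM against 159 and 174 CPM (0.90 ± 0.09). Genes of the H2 families are close copies of each other, and reads may have been split between them, so that the single values of H2-Q4, H2-T22 and H2-T23 are uncertain. Tap1, Psmb8 and Psmb9 were not in the table. Without encorafenib replicate 1, 7 members were called higher, and without replicate 2, 9 members. Of 21 interferon genes 9 rose, among them Oasl2 (1.70), Gbp2 (1.26), Ifit2 (1.22) and Irf7 (0.85), and Jak2 fell (-0.40 ± 0.06). Oasl2 had 0.491 to 0.550 CPM in DMSO and 1.75 and 1.64 CPM in encorafenib.

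Among the called class I genes with a RefSeq promoter, 3 of 10 held an ISRE within 250 bases before the start site, and they are shown because the genes rose together. They were looked for after the values were known. The capitals mark the ISRE. The windows lie at chr2:122147437-122147686 on the plus strand (B2m), chr17:36042743-36042992 on the minus strand (H2-T22) and chr17:36032702-36032951 on the minus strand (H2-T23). Counted back from the start site, the motif begins at base -139 in B2m, -191 in H2-T22 and -124 in H2-T23.
B2m promoter: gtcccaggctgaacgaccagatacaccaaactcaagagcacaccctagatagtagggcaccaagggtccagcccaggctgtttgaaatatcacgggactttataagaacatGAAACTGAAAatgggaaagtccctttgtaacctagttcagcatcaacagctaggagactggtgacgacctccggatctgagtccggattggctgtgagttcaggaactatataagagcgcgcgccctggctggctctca
H2-T22 promoter: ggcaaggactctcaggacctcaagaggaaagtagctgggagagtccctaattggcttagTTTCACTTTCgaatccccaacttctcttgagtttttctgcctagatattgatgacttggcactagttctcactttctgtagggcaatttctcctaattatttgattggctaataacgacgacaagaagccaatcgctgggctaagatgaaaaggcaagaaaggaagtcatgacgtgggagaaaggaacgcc
H2-T23 promoter: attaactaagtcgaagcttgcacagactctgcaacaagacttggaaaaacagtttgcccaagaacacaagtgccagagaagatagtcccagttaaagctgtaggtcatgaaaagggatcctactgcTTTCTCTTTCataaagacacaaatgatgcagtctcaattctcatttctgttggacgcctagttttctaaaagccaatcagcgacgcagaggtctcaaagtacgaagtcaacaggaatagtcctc
H2-T22 and H2-T23 hold the motif on the opposite strand. A match describes the letters and not the use of the site.

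Molecules that restrain immune cells did not move together. Of 17 checkpoint genes 5 rose and 3 fell. Pdcd1lg2, which encodes PD-L2, had 4.60, 3.58 and 5.04 CPM in DMSO and 0.527 and 0.292 CPM in encorafenib (-3.45 ± 0.29; limma, adjusted p = 1.93e-10). Cd274, which encodes PD-L1, had 4.45 to 4.91 CPM in DMSO and 4.94 and 4.25 CPM in encorafenib, and its groups overlapped. Havcr2 (-0.73) and Cd24a (-0.37) fell, and the complement inhibitor Cd55 (0.90) and Vtcn1 (0.82) rose. Without encorafenib replicate 2, 3 checkpoint genes were called higher. Of 22 secreted factors 7 rose and 3 fell. Csf1, the macrophage growth factor, had 60.5, 62.2 and 62.3 CPM in DMSO and 116 and 115 CPM in encorafenib (0.90 ± 0.05), and Cxcl10 had 0.764 to 0.826 CPM against 2.07 and 2.16 CPM (1.39 ± 0.18). Il18 rose by 2.25 ± 0.41 from a very low level of at most 0.180 CPM in DMSO. Osteopontin (Spp1) had 155 to 162 CPM in DMSO and 83.3 and 72.8 CPM in encorafenib (-1.03 ± 0.08), and Il1a (-1.38) and Cxcl15 (-1.51) fell.

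Of 14 BCL2 family genes 4 rose and none fell (median 0.17). These were the BH3-only genes Bik (1.36 ± 0.16), Pmaip1 (0.63 ± 0.06) and Bid (0.54) and the survival gene Mcl1 (0.22). Among 19 caspase and gasdermin genes 4 rose and 4 fell, with Casp4 (1.62 ± 0.38) and Casp12 (1.05) highest. The caspase and gasdermin genes called higher were 2 without encorafenib replicate 1, and those called lower were 2 without replicate 2. Of 13 targets of wild-type p53, which the R172H mutant does not activate normally, Gdf15 (0.89) and Trp53inp1 (0.77) rose. None fell, and the share of calls was below the 18.2% of all genes. Gdf15 had 13.0 to 16.0 CPM in DMSO, 18.2 CPM in encorafenib replicate 1 and 37.8 CPM in replicate 2, and 1 member of this list was called without encorafenib replicate 2 and without DMSO replicate 2 or 3.

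The cystine transporter Slc7a11 had 340, 345 and 338 CPM in DMSO and 93.2 and 81.7 CPM in encorafenib (-1.97 ± 0.10; limma, adjusted p = 1.19e-14). It was the lowest of 22 genes of the ATF4 and unfolded protein response, of which 3 rose, with Trib3 and Ddit4 at 0.58 the highest, and 3 fell, and 1 was called higher without encorafenib replicate 2. Of 20 NRF2 targets 5 fell, led by the quinone reductase Nqo1 (-1.04 ± 0.12), and Osgin1 rose (0.60). Of 24 genes of glycolysis and the hypoxia response 6 fell, led by Stc1, which had 19.8, 19.8 and 20.8 CPM in DMSO and 0.883 and 0.731 CPM in encorafenib, and by the prolyl hydroxylase Egln3 (-1.53). Pfkfb3 (0.67) and Ndrg1 (0.45) rose. Without encorafenib replicate 1, 2 genes of this list were called lower. Of 24 genes of cholesterol and fatty acid synthesis Acly (-0.39) and Scd1 (-0.37) fell and none rose, a share close to the 8.50% of all genes called lower. Of 24 lysosome and autophagy genes 3 rose and Ctsl fell (-0.28), fewer calls than the 18.2% of all genes, and with only the 2 groups compared in the model 8 were called higher. Of 21 PI3K and FOXO genes 5 rose, led by Foxo1 (0.36), a number that was 0 without encorafenib replicate 1 and 2 without any single DMSO library or with only the 2 groups compared.

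Among the engineered genes, Braf (ENSMUSG00000002413, chromosome 6, 39603237 to 39725463) had 45.3, 45.4 and 45.0 CPM in DMSO and 52.5 and 45.2 CPM in encorafenib (0.11 ± 0.11; limma, adjusted p = 0.535). Apc had 240, 248 and 242 CPM against 257 and 210 CPM (-0.07 ± 0.09, adjusted p = 0.656), and Trp53 had 183, 180 and 179 CPM against 146 and 153 CPM, a decrease that was called (-0.27 ± 0.06, adjusted p = 6.73e-04). Counts per gene do not separate the mutant from the normal transcript. For Trp53, the study reports that the lines had lost the normal allele at higher passages.

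The response at day 5 was then compared with that of the same line at day 1, which used 3 DMSO and 3 encorafenib libraries of its own. At day 1, 4161 genes were called (29.5%), of which 2468 (17.5% of all genes) were higher. Of the 2567 genes called at day 5, 1704 were called in the same direction at day 1, which is 66.4% of the genes of day 5 and 41.0% of those of day 1, and 105 were called in the opposite direction. The difference between the 2 responses was called in 830 genes (5.88%). It was one-sided. The response at day 5 was below that at day 1 in 699 genes (4.95%) and above it in 131 (0.929%). Of the 699 genes, 507 had been higher in encorafenib at day 1. The day 1 response is subtracted in the difference, so that this split is not independent of the difference. At day 5, 273 of the 699 were lower than in DMSO, 80 were still higher and 346 were not called.

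**Figure D4:**
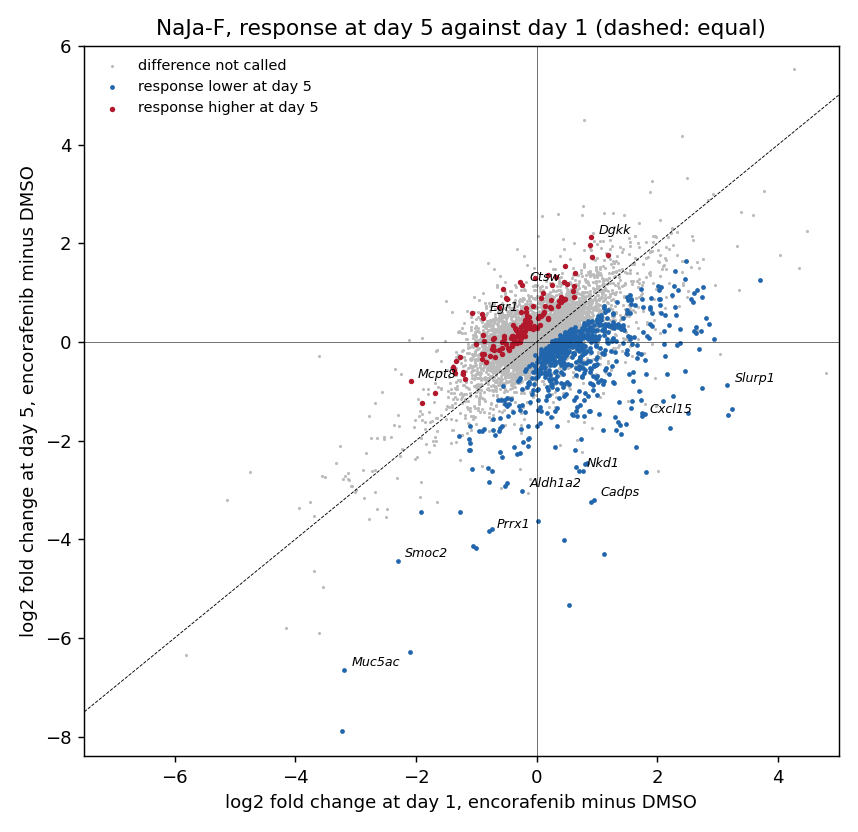
Log2 fold change of encorafenib against DMSO in NaJa-F at day 1 (horizontal axis) and at day 5 (vertical axis) for all genes, with the dashed line marking equal responses. Blue points are the 699 genes whose response was lower at day 5 and red points the 131 whose response was higher. Most blue points lie to the right of 0 at day 1, a value that is itself subtracted in the difference.

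The most negative difference among the named genes was that of Cadps, a factor for the release of dense core vesicles, which rose by 0.94 ± 0.11 at day 1 and fell by 3.20 ± 0.16 on the log2 scale at day 5 (difference -4.14 ± 0.19; limma, adjusted p = 8.45e-15). Its DMSO level differed between the days too, with 2.71 ± 0.24 CPM at day 1 and 12.9 ± 0.42 CPM at day 5 (SD, n = 3 each), while the encorafenib level was 5.26 ± 0.53 CPM (n = 3) and 1.42 ± 0.21 CPM (n = 2). Nkd1 had the same pattern, with 8.83 ± 0.96 CPM in DMSO and 14.4 ± 1.7 CPM in encorafenib at day 1 and 28.2 ± 1.3 CPM and 4.58 ± 0.45 CPM at day 5. The differences of the responses were -3.32 ± 0.19 for Nkd1 and -3.29 ± 0.17 for the dynein chain Dync1i1, which had risen by 0.83 at day 1. The responses of Cxcl15 (1.75 and -1.51) also changed sign, but its encorafenib mean did not fall, with 1.00 CPM at day 1 and 1.90 CPM at day 5. Its DMSO mean went from 0.309 to 5.39 CPM, so that a difference of responses can rest on the DMSO level. Slurp1 rose at day 1 (3.16) and was not called at day 5 (-0.88 ± 0.34; limma, adjusted p = 0.0569), and Muc5ac, already lower at day 1 (-3.19), was lower still at day 5. In the opposite direction, Egr1 was lower at day 1 (-0.91 ± 0.10) and higher at day 5 (0.56 ± 0.11), a difference of 1.47 ± 0.15. Its DMSO mean went from 22.65 CPM at day 1 to 11.75 CPM at day 5, and its encorafenib mean from 12.09 to 17.27 CPM. The difference of Egr1 thus rests on both levels. The differences of Gdf15 (1.40), Ctsw (1.40), Clca3a1 (1.33), Mcpt8 (1.28) and Dgkk (1.21) were also positive. For Mcpt8 this was a smaller decrease (-2.09 at day 1, -0.80 at day 5). Its DMSO mean was 6.05 CPM at day 1 and 2.5 CPM at day 5, and its encorafenib mean 1.42 and 1.43 CPM. The DMSO mean of Ctsw went from 5.17 to 2.30 CPM and its encorafenib mean from 4.38 to 5.14 CPM. For Dgkk the difference was a larger increase (0.90 and 2.12). Clca3a1 has close paralogs, and its value is uncertain.

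Of the 18 WNT targets and stem cell genes 10 had a lower response at day 5 than at day 1 and none a higher one, beside 4.95% and 0.929% of all genes. At day 1, 6 of the 18 were higher and 3 were lower (median -0.03). Notum rose by 1.34 ± 0.15 at day 1 and fell by 1.63 ± 0.17 at day 5, and its CPM were 6.67 ± 0.058 in DMSO and 17.1 ± 2.7 in encorafenib at day 1 (SD, n = 3 each). Axin2 (0.25 and -0.32) and Lgr5 (0.76 and -0.24) were higher at day 1 too, while Smoc2 was lower on both days (-2.30 and -4.43). In the ERK lists the difference went the other way in the genes called. Of the 10 feedback inhibitors, 9 were called at day 1 (median -0.59), and 3 had a higher response at day 5. Dusp6 fell by 0.90 ± 0.07 at day 1 and was -0.24 at day 5 (difference 0.66 ± 0.11; limma, adjusted p = 9.02e-05). Of 13 EGFR family genes 4 had a higher response at day 5, among them Areg (-1.39 at day 1, -0.52 at day 5). For the mesenchymal genes 7 of 17 had a lower response at day 5 and 1 a higher one. Zeb1 was higher at day 1 (0.25 ± 0.07) and lower at day 5 (-0.85 ± 0.09).

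**Figure D5:**
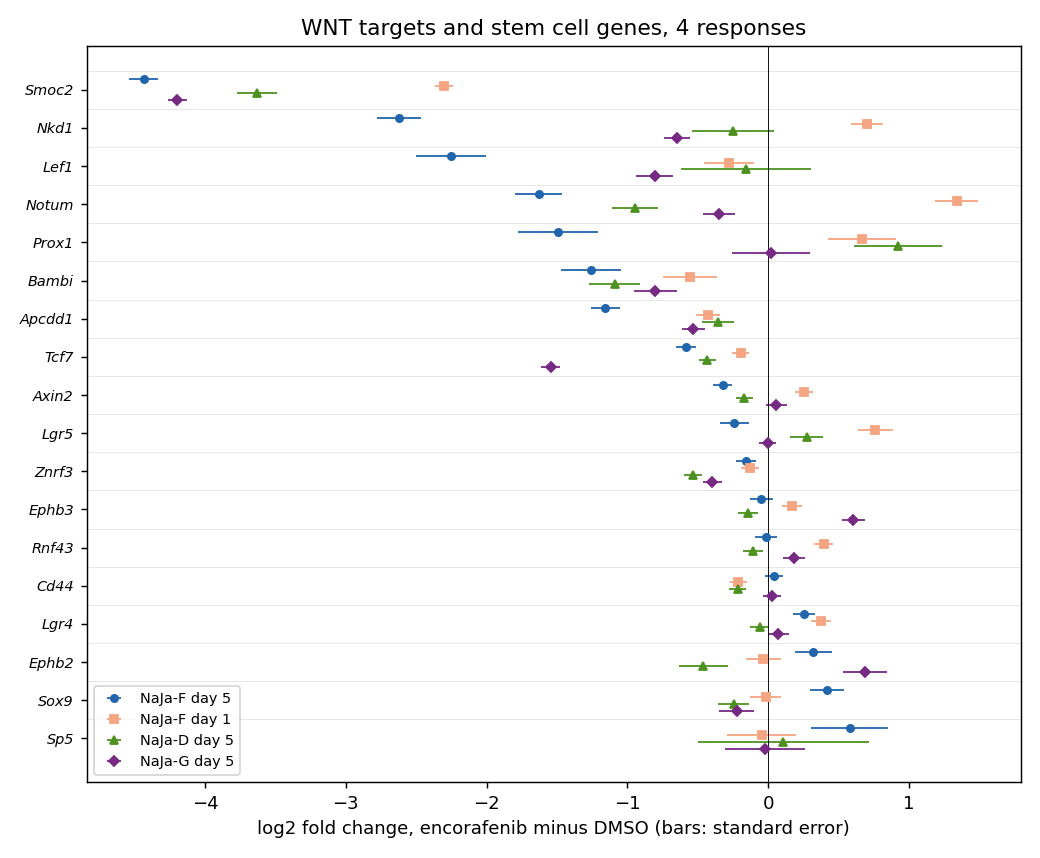
Log2 fold change of encorafenib against DMSO, with standard errors, for the 18 measured WNT targets and stem cell genes (rows) in NaJa-F at day 5 (blue circles) and day 1 (orange squares), NaJa-D at day 5 (green triangles) and NaJa-G at day 5 (purple diamonds). Nkd1, Notum and Prox1 lie left of 0 in NaJa-F at day 5 and right of 0 at day 1, and Smoc2 is low in all 4 responses.

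Against NaJa-D, the response of NaJa-F at day 5 differed in 1248 genes (8.85%), of which 575 (4.08%) were higher and 673 (4.77%) were lower in NaJa-F. The balance turned to 659 higher and 523 lower without NaJa-D DMSO day 1 replicate 3, to 594 and 537 with only the groups compared, and to 580 and 578 without NaJa-F encorafenib replicate 2. Without NaJa-F encorafenib replicate 1, 771 genes differed. These lines did not share libraries. Penk fell in NaJa-F (-3.80 ± 0.26) and was at 0.60 ± 0.21 in NaJa-D, where it had 1.54 ± 0.11 CPM in DMSO (SD, n = 3). The fatty acid receptor Cd36 rose far more in NaJa-D (5.04 ± 0.21) than in NaJa-F (1.48 ± 0.25), from a similar DMSO level of 0.464 and 0.463 CPM. Muc5ac fell by 3.19 in NaJa-D, where DMSO cells had 0.887 CPM against 10.7 CPM in NaJa-F. Cdh17 (-2.33 ± 0.09 in NaJa-F, -4.94 ± 0.19 in NaJa-D) and Ly6g (-1.09 and -3.86) fell in both lines, and less in NaJa-F. Ptprz1, a receptor phosphatase, fell by 4.09 in NaJa-D from 22.7 ± 2.5 CPM and had at most 0.874 CPM in NaJa-F. Of the mitosis genes 8 of 18, and of glycolysis and hypoxia genes 10 of 24, had a response above that of NaJa-D. Mki67 fell by 0.84 ± 0.10 in NaJa-D (difference 0.74 ± 0.15; limma, adjusted p = 8.68e-04). Egfr and Erbb3, which rose in NaJa-F, were at 0.07 and 0.04 in NaJa-D, and both differences were called (0.46 ± 0.09 and 0.43 ± 0.10).

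Against NaJa-G the differences were more numerous, with 3412 genes called (24.2%), 1122 (7.95%) higher and 2290 (16.2%) lower in NaJa-F. Tnfsf15, a cytokine of the TNF family, was at 6.80, 7.92 and 7.71 CPM in NaJa-F DMSO and 7.27 and 5.89 CPM in encorafenib, and rose in NaJa-G from 0.565 ± 0.16 CPM (n = 2) to 21.6 ± 2.1 CPM (SD, n = 3; 5.24 ± 0.26 on the log2 scale). The collagen gene Col11a1 rose by 5.99 in NaJa-G and was at 0.74 ± 0.24 in NaJa-F. Prrx1 fell in NaJa-F and rose in NaJa-G (1.15 ± 0.14), a difference of -4.99 ± 0.30 (limma, adjusted p = 2.29e-13). Zeb1 (0.89 in NaJa-G), Zeb2 (0.45) and Axl (0.25, not called) were split likewise, with the values in NaJa-F given above, and all 3 differences were called. Of the 17 mesenchymal genes 14 had a lower response in NaJa-F and 1 a higher one. In the positive direction, the homeobox gene Cdx2, a keeper of intestinal identity, fell in NaJa-G from 8.93 to 1.29 CPM (-2.78 ± 0.21) and had 54.3 to 56.0 CPM in NaJa-F DMSO and 47.7 and 65.3 CPM in encorafenib. Aldh1a3, which makes retinoic acid, fell by 3.41 in NaJa-G and by 0.52 in NaJa-F. Apoc2 fell by 5.90 in NaJa-G from 13.6 CPM and was at most 0.213 CPM in NaJa-F, so that its difference (3.38 ± 0.86) rests on very few counts in NaJa-F. Of 18 DNA replication genes 12, and of 24 cholesterol and fatty acid genes 15, had a higher response in NaJa-F than in NaJa-G, with none lower, which for the replication genes was a smaller decrease (median -0.24 in NaJa-F and -0.65 in NaJa-G). For the YAP and fetal markers 12 of 15 had a lower response in NaJa-F, where Ccn2 rose by 1.22 against 2.61 in NaJa-G.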

How the data were processed

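The submitters' processing notes name Trimmomatic 0.39, STAR 2.5.2b and the build GRCm38 (mm10), and the authors deposited raw counts per gene for 34 libraries, with 46007050 to 80121299 counts each. The counter, annotation release and use of strand are not given in the sources used here. GENCODE M21 gave the name and position of 14064 of 14107 identifiers. Counts were scaled by TMM and fitted with limma 3.58.1 (voom, edgeR 4.0.16, R 4.3.3), with a mean for each of 12 groups of line, treatment and day, so that all 34 libraries shared 1 estimate of the spread. The study's methods name limma and TMM but not voom. Tests were two-sided, with Benjamini-Hochberg adjustment over all genes and calls at an adjusted p below 0.01. Differences of responses were contrasts of the same model. CPM use TMM factors. The procedure was tested on simulated counts in which each gene had the same dispersion in all groups. The larger spread of the encorafenib libraries and the GC trend were not simulated, so that this test does not cover them. Standard errors are those of limma, and SD are between libraries.

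The members and the gene lists were chosen with earlier results of these data known. Genes named are the 12 lowest and 12 highest fold changes among called genes with at least 5 CPM in a group and no overlap between groups, the 6 lowest and 6 highest differences between days and the 3 lowest and 3 highest between lines by the same kind of rule, the engineered genes, and list members. Promoters follow the fold change within the ERK lists, except the class I promoters. The ISRE windows, Junb, Scrt2, Cdx2 levels and the genes set beside other lines were singled out after their values were seen. Replicate numbers were not used as pairs. The correlations of same-numbered deviations (-0.0425 and 0.0488 in 2 pairs) cannot decide whether they pair the libraries, because the deviations of 2 encorafenib libraries mirror each other. Also tried were limma-trend (prior count 3), the quasi-likelihood test of edgeR, DESeq2 1.42.0, RLE and library size scaling, other filters and thresholds, a replicate block, only the groups compared, and leaving out each library. The GC correction (lowess span 0.3) and the leaving out of NaJa-D DMSO day 1 replicate 3, whose cell line field names NaJa-G, were chosen after seeing the data. A few list members are not reported here.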

Additional observations from a re-analysis of the deposited data

Results flagged for a closer look

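The response of NaJa-F to encorafenib at day 5 was tested against 3 other responses of the series by a contrast of the same limma model, and each set of differences was flagged because the 2 responses differed by that test. Against day 1 of the same line 830 genes differed, against NaJa-D at day 5 1248 genes, and against NaJa-G at day 5 3412 genes.

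Between the days, the named genes with a lower response at day 5 were Cadps (-4.14 on the log2 scale), Slurp1 (-4.04), Muc5ac (-3.46), Nkd1 (-3.32), Dync1i1 (-3.29) and Cxcl15 (-3.26). Those with a higher response were Egr1 (1.465), Gdf15 (1.40), Ctsw (1.40), Clca3a1 (1.33), Mcpt8 (1.285) and Dgkk (1.21).

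Between NaJa-F and NaJa-D, the response was lower in NaJa-F for Penk (-4.40), Cd36 (-3.56) and Muc5ac (-3.46), and higher for Ptprz1 (3.49), Ly6g (2.765) and Cdh17 (2.60). Ly6g belongs to a family of close copies, and its value is uncertain. Between NaJa-F and NaJa-G, it was lower for Tnfsf15 (-5.43), Col11a1 (-5.25) and Prrx1 (-4.99), and higher for Apoc2 (3.38), Aldh1a3 (2.89) and Cdx2 (2.80). Each line came from the lavage of 1 recipient, so that line and recipient cannot be told apart.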

How the results depend on the processing

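With 2 encorafenib libraries, a fit without either of them leaves 1, which is assumed to vary like the other groups. The genes called at day 5 (2567) were 1912 to 2399 when a library was left out, 2703 with DESeq2, 2524 with edgeR, 2679 with the GC trend removed and 579 when a change of 1 or more on the log2 scale was also required. That threshold gave 286 genes between the days, 279 against NaJa-D and 1144 against NaJa-G. An adjusted p below 0.05 gave 1414 genes between the days and 2207 against NaJa-D. The differences from NaJa-D were 771 to 1308 when a library was left out, with the lowest count without NaJa-F encorafenib replicate 1. With the replicate number as a block the counts were 2467, 814, 1209 and 3381, although the numbers share no stated pairing.

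Among genes of at least 1 CPM on average the median log2 fold change was -0.327 for mesenchymal genes, 0.095 for matrix proteases, 0.357 for fibroblast markers and 0.883 for mesothelial markers, and by limma-trend it was 0.869 for mesothelial markers. No endothelial marker was left at that level. Leaving out libraries, the median ranged from -0.379 to -0.256 for ERK feedback inhibitors, from -0.063 to 0.134 for D cyclins and CDK genes, from 0.036 to 0.178 for the BCL2 family and from -0.429 to 0.128 for mesenchymal genes. Among the genes with values in the text, leaving out a library changed the sign for Apc (-0.224 to 0.0613), Braf (-0.0118 to 0.195), Cd274 (-0.137 to 0.0723), Cdx2 (-0.226 to 0.236), Ereg (-0.0431 to 0.139, and -0.00735 with the GC trend removed), Mki67 (-0.242 to 0.0292), Rrm1 (-0.0719 to 0.066, and -0.0141 with that trend removed), Scrt2 (-1.94 to 12.8), Sp5 (-0.217 to 1.32) and Ube2c (-0.149 to 0.280), none of which was called. The cause of these shifts was not tested.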
